A study of Mus musculus with 16 samples.

Results

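The Foxa1 locus on mouse chromosome 12 was described in histone ChIP-seq peak lists of mesenchymal stem cell (MSC) lines with and without Dicer. The locus was chosen by the rule that all peaks overlapping chr12:58620000-58670000 (mm9), a window of 50 kb, count as its members, with Foxa1 lying near 58642000 to 58648000. It was selected on these same libraries, because H3K4me3, H3K36me3 and H3K27me3 all differed there between the genotypes. Every difference inside the window is therefore a description and was not tested. The 24 lists held 25 peaks in the window, out of 289380 peaks on chromosomes 1 to 19 and X. Of these, 14 came from the lists against whole-cell extract and 11 from the difference lists, and 11 of the 24 lists had none.

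The KO lines were Dicer -/- and the WT lines Dicer f/f, that is, floxed with Dicer intact, both on the C57BL/6 background. All were immortalized monoclonal lines of murine MSCs grown in serum, so the deletion and any difference between clones cannot be told apart. Each of the 3 marks had 2 libraries in KO and 2 in WT, 12 in all, and nothing in the labels says whether the replicates were separate cultures. Any SD below therefore measures only the spread between 2 libraries, which may be technical. Markers of MSCs could not be checked, because no mm9 gene annotation was used here.

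Foxa1 encodes a forkhead transcription factor, known as a pioneer factor because it can bind its sites in compact chromatin and open them. It acts in the endoderm and in epithelia such as liver, lung, prostate and breast, and it is not a usual marker of mesenchymal cells. H3K4me3 is a mark of active and poised promoters, most often rich in CpG. H3K36me3 is placed along gene bodies by an enzyme that travels with elongating RNA polymerase II, and H3K27me3 is placed by Polycomb repressive complex 2 over silent developmental genes. Dicer cuts microRNA precursors, let-7 among them, into their mature form.

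The promoter is shown because H3K4me3 and H3K27me3 peaks lay over the start-side end of the approximate Foxa1 position. RefSeq places it on the minus strand of GRCm38.p6 at chr12:57546112-57546361, coordinates of another build that cannot be set against the mm9 peaks. The 250 bases before the annotated start are given 5′ to 3′, with matches to GGGCGG (or CCGCCC, its form on the other strand) and GTAAACA in capitals.
Foxa1 promoter: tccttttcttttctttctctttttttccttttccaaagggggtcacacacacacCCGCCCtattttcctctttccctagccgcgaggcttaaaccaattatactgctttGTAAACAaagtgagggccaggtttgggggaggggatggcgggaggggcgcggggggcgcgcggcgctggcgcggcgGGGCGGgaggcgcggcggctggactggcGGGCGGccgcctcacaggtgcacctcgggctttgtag

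The promoter was rich in CpG. Over 300 bases, 250 before and 50 after the start, it held 26 CpG dinucleotides, against a median of 7 over the 32851 promoters of the RefSeq table. Its observed over expected CpG ratio was 0.929, against a median of 0.384, and was higher than in 89.4% of promoters. The GC content was 62.3%, against a median of 52.7%. GGGCGG, the GC box bound by Sp-family factors, occurred 3 times on either strand and is held by 35.7% of promoters. GTAAACA, a core of forkhead factor sites that was searched after the sequence had been seen, occurred 1 time and is held by 3.65%. TATAAA, the TATA box, had no match and is held by 13.6%. The matches did not overlap, and they describe letters only.

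In the same RefSeq table Ttc6 on the plus strand overlaps the Foxa1 annotation and is its next protein-coding gene, with Mipol1 on the other side. The marks carry no strand, so H3K4me3 at the Foxa1 start cannot be assigned to Foxa1 rather than to Ttc6. The same limit applies to the other H3K4me3 peak and to H3K36me3 over the approximate Foxa1 position.

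H3K4me3 was present in all but 1 of the 4 libraries and was longer in KO. It covered 7314 bp in KO replicate 1 and 8201 bp in KO replicate 2, whereas WT replicate 1 had 0 bp and WT replicate 2 had 4464 bp. The means were 7757.5 ± 627.2 bp in KO and 2232 ± 3156.5 bp in WT (SD, n = 2 each). The genotypes did not overlap, but the gap of 4464 bp between the WT libraries was nearly as large as the difference of means. That difference was 5525.5 bp, and 3293.5 bp without WT replicate 1. The name of the locus as a switch of all marks therefore holds for H3K4me3 only as more against less, since WT replicate 2 also carried it.

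The H3K4me3 lay in 2 separate peaks. In the KO libraries the one at the higher coordinates reached past the end of the approximate Foxa1 position where the gene starts. The orientation was taken from GRCm38.p6. In WT replicate 2 this peak stopped short of that end. It ran from 58644215 to 58648347 (4133 bp) in KO replicate 1 and from 58644347 to 58648268 (3922 bp) in KO replicate 2, against 58645489 to 58647784 (2296 bp) in WT replicate 2. The other peak lay at the opposite end, which it crossed in the KO libraries and stopped short of in WT replicate 2. It ran from 58638854 to 58642034 (3181 bp) in KO replicate 1 and from 58638418 to 58642696 (4279 bp) in KO replicate 2, against 58638939 to 58641106 (2168 bp) in WT replicate 2. Both WT replicate 2 peaks lay wholly inside the KO peaks, so the KO libraries covered the same sites and extended past them on either side. The KO replicates shared 7103 bp of a joint 8412 bp.

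These peaks were wide for their lists in KO, while the score that the authors deposited does not set them apart. In both KO extract lists they had a score of 3100, which 40.9% and 43.9% of the peaks in KO replicates 1 and 2 reached or exceeded. In KO replicate 1, 59.1% of the list scored lower and the peak at the gene start was wider than 97.0% of it. In KO replicate 2, 56.1% scored lower and the same peak was wider than 90.0%. The WT replicate 2 peaks were in the middle of their list, scoring 1137.66 at the start side and 1494.34 at the opposite end, higher than 34.5% and 37.2% of its peaks. They were wider than 54.1% and 50.2%.

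H3K36me3, the mark of transcribed gene bodies, was listed in this window only in the KO libraries. It covered 2591 bp in KO replicate 1 and 2008 bp in KO replicate 2, against 0 bp in both WT libraries. Each KO library had 1 peak, from 58641397 to 58643987 in replicate 1 and from 58642554 to 58644561 in replicate 2, which shared 1434 bp of a joint 3165 bp. They were of ordinary width, ranking above 72.0% and 58.6% of their lists, with scores of 799.76 and 477.68 that exceeded 84.2% and 66.7%. The whole H3K36me3 lists held 33388 and 35956 peaks in KO and 38637 and 38062 peaks in WT, and the part of list length in the difference at Foxa1 was not tested.

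H3K36me3 filled the space between the H3K4me3 peaks. In KO replicate 1 the gap between them was 2180 bp, of which H3K36me3 of the same replicate covered 89.6%. In KO replicate 2 the gap was 1650 bp and was covered in full. The H3K36me3 peak overlapped H3K4me3 by 638 bp in KO replicate 1 and by 358 bp in KO replicate 2. In WT replicate 2 the gap between the shorter H3K4me3 peaks was 4382 bp and held no H3K36me3. Within the 6000 bp of the approximate Foxa1 position, H3K36me3 covered 33.1% and 33.5% in KO.

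H3K27me3 was listed in this window only in the WT libraries. It covered 0 bp in both KO libraries, whereas WT replicate 1 had 4145 bp and WT replicate 2 had 21919 bp. The genotypes did not overlap, but the WT replicates lay so far apart that their mean of 13032 bp had an SD of 12568.1 bp (n = 2). KO minus WT was -13032 bp, -21919 bp without WT replicate 1 and -4145 bp without WT replicate 2.

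The shape of H3K27me3 also differed between the WT libraries. WT replicate 2 had 1 domain of 20915 bp, from 58633922 to 58654836, with a small peak of 1004 bp beyond it. The domain was 66th in width among 14932 peaks of that list and had the score of 3100. WT replicate 1 had 4 short peaks of 674 to 1510 bp, all inside that domain, with scores between 88.94 and 274.63. Its whole list held 2558 peaks over 4.67 Mb, against 14932 peaks over 37.9 Mb in WT replicate 2.

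List length differed between the KO libraries. KO replicate 1 listed 703 H3K27me3 peaks over 0.732 Mb in all, and KO replicate 2 listed 17491 peaks over 34.4 Mb. The part of list length in the values of 0 was not tested. The H3K27me3 peaks of KO replicate 2 nearest to Foxa1 ended 4263970 bp below the window and began 12395894 bp above it. Without read counts, a level of H3K27me3 below the calling threshold in KO could not be seen.

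**Figure D1:**
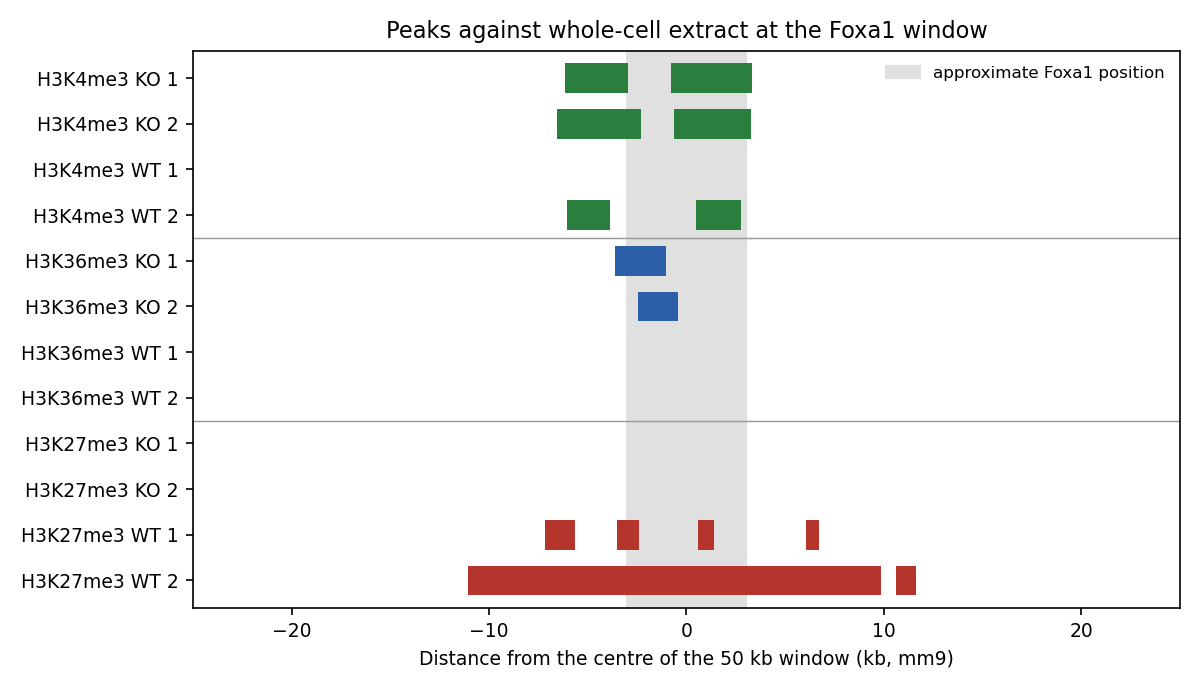
Peaks against whole-cell extract in the 50 kb window, 1 row per library with KO above WT in each mark, by distance from the window's centre in kb (mm9); the grey band is the approximate Foxa1 position. H3K4me3 forms a pair of peaks in both KO libraries and a narrower pair in WT replicate 2, H3K36me3 lies between them in KO, and H3K27me3 is listed in WT as 4 short peaks or 1 domain of 20915 bp.

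**Figure D2:**
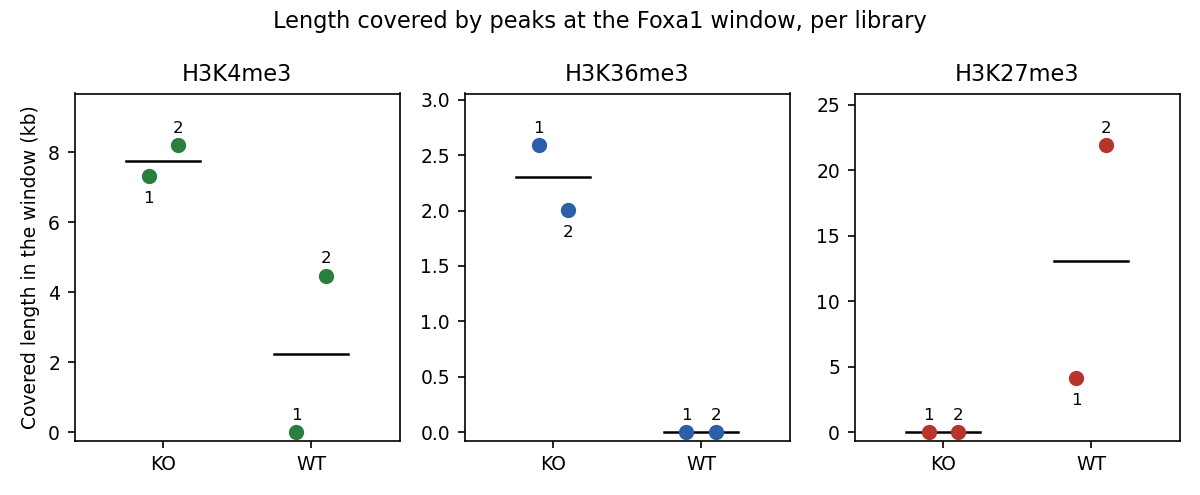
Covered length in the window (kb) per library, with the replicate number beside each point and a bar at the mean of 2 libraries. KO lies above WT for H3K4me3 and H3K36me3 and below it for H3K27me3, with WT replicates far apart for H3K4me3 (0 and 4464 bp) and H3K27me3 (4145 and 21919 bp).

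Active and repressive peaks occupied the same ground in different genotypes. The gap between the KO H3K4me3 peaks and the nearest WT H3K27me3 peak was 0 bp for every peak and every pair of libraries, since all of them overlapped. All 7314 bp and 8201 bp of KO H3K4me3 lay inside the H3K27me3 of WT replicate 2, as did all of the KO H3K36me3. The short peaks of WT replicate 1 overlapped 1872 bp of H3K4me3 in KO replicate 1 and 2891 bp in KO replicate 2. The WT replicate 2 domain began 4932 and 4496 bp below the H3K4me3 pairs of KO replicates 1 and 2 and ended 6489 and 6568 bp above them.

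Within a genotype and replicate number, the distance was either very long or 0. Between the H3K4me3 and H3K27me3 libraries of KO replicate 1, which share genotype and number only, the H3K4me3 pair lay 18138802 bp from the nearest H3K27me3 peak. Between those of KO replicate 2 it lay 4282387 bp away. The H3K27me3 lists of KO replicates 1 and 2 held 703 and 17491 peaks in all. The part of list length in these distances was not tested. In WT replicate 2 both H3K4me3 peaks, 4464 bp in all, lay inside the H3K27me3 domain, which extended 5017 bp below and 7052 bp above them. Such a pairing of both marks is called bivalent, although peak lists from a cell population do not show that the same molecules carried both. In WT replicate 1 the question does not arise, as no H3K4me3 peak was listed.

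The difference lists held 11 of the 14 peaks, each with the coordinates of a peak in its own library's extract list. These lists were read as 1 genotype against the other of the same mark, which the sources used here do not state. In KO they held both H3K4me3 peaks and the H3K36me3 peak of each replicate. In WT they held the 4 short H3K27me3 peaks of replicate 1 and the domain of replicate 2. The 3 peaks they left out were the H3K4me3 pair and the small H3K27me3 peak of WT replicate 2. The peak at the Foxa1 start outscored 99.6% and 99.5% of the H3K4me3 difference lists of KO replicates 1 and 2. The peak at the opposite end outscored 98.8% in replicate 1 and 73.8% in replicate 2, where its score was 276.97.

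When the 4 extract lists of each mark were merged into regions, the window held 5 regions, of which 4 carried a difference peak in both replicates. Both H3K4me3 regions were KO-higher, as were 10.8% of the 25204 H3K4me3 regions in the series. The H3K36me3 region was KO-higher, as were 0.668% of 39794 regions. The H3K27me3 domain was WT-higher, as were 3.76% of 24016 regions. On chromosome 12 the KO-higher share was 2.5% of 1559 H3K36me3 regions and the WT-higher share 0.128%, against 0.668% and 1.24% over all chromosomes. H3K4me3 regions were KO-higher in 14.8% on chromosome 12 against 10.8% over all, and WT-higher in 1.75% against 1.12%. H3K27me3 regions were WT-higher in 4.26% against 3.76%. In all 3 marks the share on chromosome 12 was above the overall share in the direction seen at Foxa1, and the part of the chromosome in the Foxa1 values was not tested.

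Around the window little else was marked. In the 500 kb on either side, no library listed any H3K27me3. The nearest H3K27me3 peaks of WT replicate 2 outside the window lay 533364 bp below and 3954214 bp above it. H3K36me3 occurred in 1 of the 20 neighbouring windows of 50 kb, in all 4 libraries, with lengths of 2652 and 4546 bp for KO, and 3773 and 9570 bp for WT. That window, centred 300 kb below, also held an H3K4me3 peak in every library, of 2185 and 2817 bp for KO, and of 1758 and 2696 bp for WT.

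All other H3K4me3 peaks in these flanks belonged to KO libraries. Peaks near chr12:58672557-58673538, just above the window, measured 675 and 982 bp in KO replicates 1 and 2 and began 2745 and 2556 bp past its edge. Peaks near chr12:58481246-58482261 measured 644 and 1016 bp. KO replicate 2 alone listed 3 more, of 720 to 1074 bp. All these KO peaks were weak, with scores of 83.31 to 434.65, and no WT library listed any of them. All but the 720 bp peak also overlapped a peak in the difference list of their own library. KO replicate 2 had the longest H3K4me3 list, with 23818 peaks, and KO replicate 1 had 16712, whereas the WT lists had 12726 and 18296. The part of list length in these extra peaks was not tested.

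**Figure D3:**
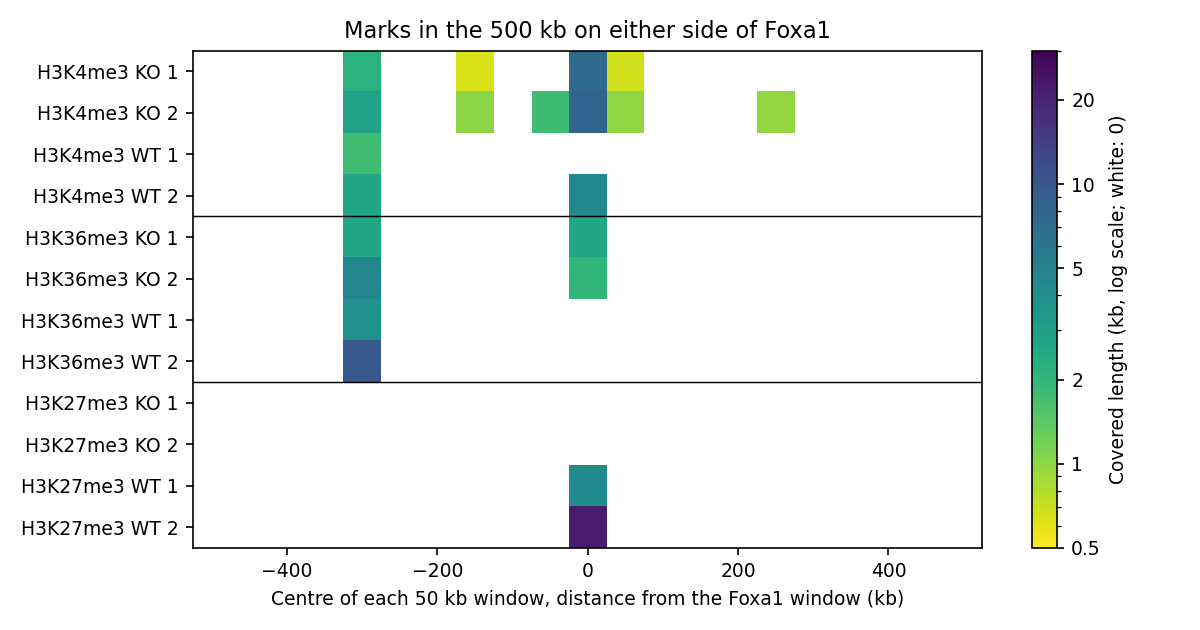
Covered length (kb, log colour scale, white for 0) in the Foxa1 window and the 10 windows of 50 kb on either side, 1 row per library. H3K27me3 appears only in the Foxa1 window and only in WT, and the small H3K4me3 peaks of the flanks appear only in KO, apart from a site in the window centred 300 kb below that every library shares.

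The Foxa1 window was then set among all windows of 50 kb in the genome, laid out so that it was 1 of them. KO covered length exceeded WT in every library in 13.2% of 16044 windows with H3K4me3 and in 2.64% of 12180 windows with H3K36me3. WT exceeded KO in every library in 4.79% of 9701 windows with H3K27me3. The Foxa1 window met all 3 conditions. By the difference of mean covered length it ranked 13th for H3K4me3 and 469th for H3K36me3 toward KO, and 70th for H3K27me3 toward WT. H3K36me3 was thus the least marked of its 3 differences, and the median of KO minus WT over windows with H3K36me3 was -2164.5 bp.

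All 3 conditions together held in 4 of the 2311 windows that carried every mark (0.173%), Foxa1 included. The count was 2 with all windows shifted by 25 kb, 7 without H3K36me3 KO replicate 1, 8 without H3K36me3 WT replicate 2 and 10 without H3K27me3 WT replicate 1. The other 3 windows were chr4:57270001-57320000, chr6:49120001-49170000 and chr11:95820001-95870000. The complete form seen at Foxa1, with no H3K27me3 in KO and no H3K36me3 in WT, held in 2 of them (0.0865%), at Foxa1 and in the chr4 window. In the chr4 window H3K4me3 differed little, at 3331 and 3672 bp in KO against 2775 and 3229 bp in WT, and H3K27me3 covered 0 bp in KO against 1160 and 6934 bp in WT. In the chr6 window H3K27me3 remained listed in KO, at 1492 and 4681 bp against 9183 and 16097 bp in WT. In the chr11 window it covered 1147 and 6152 bp in KO against 7381 and 19848 bp in WT.

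Difference peaks gave regions at Foxa1 and in the chr6 and chr11 windows, but none in the chr4 window. These peaks come from the same libraries and are no separate support. Of 1923 H3K4me3 regions with both other marks within 10 kb, 5 (0.26%) were KO-higher in H3K4me3 and H3K36me3 and WT-higher in H3K27me3 in both replicates. The pair at Foxa1 made up 2 of them, and the others were chr6:49159107-49169040, chr11:95841672-95844981 and chr11:95848739-95850827. Within 10 kb of the chr11:95841672 region H3K27me3 covered 0 bp in both KO libraries, as at Foxa1, while H3K36me3 covered 9236 and 9874 bp in KO against 3176 and 0 bp in WT. Within 10 kb of the chr6 region H3K36me3 covered 0 bp in both WT libraries, as at Foxa1, while H3K27me3 covered 5780 and 13721 bp in KO against 15558 and 25137 bp in WT. Within 10 kb of the chr11:95848739 region H3K27me3 covered 0 and 1063 bp in KO, and H3K36me3 covered 1224 and 0 bp in WT.

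Most H3K27me3 domains of this size still met an H3K27me3 peak in KO, unlike the one at Foxa1. WT replicate 2 had 390 H3K27me3 peaks of 10 kb or more, of which 19 (4.87%, 95% Wilson interval 3.14% to 7.48%) met no H3K27me3 peak in either KO library. With KO replicate 2 alone it was 20 (5.13%), so the count rests almost wholly on that library. H3K4me3 of WT replicate 2 overlapped 171 of the 390. Of these 171, 8 (4.68%, 95% Wilson interval 2.39% to 8.96%) had no H3K27me3 peak in KO, and 2 had H3K36me3 inside in both KO libraries and in neither WT library. Both features together were found in 1 of 171 domains, the one at Foxa1, which had been chosen for them. The intervals cover counting error only.

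H3K4me3 inside the Foxa1 domain was longer in KO replicate 2 than in WT replicate 2. Within the 171 domains, the share covered by H3K27me3 of KO replicate 2 had a median of 65.2%, against 0% at Foxa1. H3K4me3 in KO replicate 2 minus WT replicate 2 had a median of 4 bp, against 3737 bp at Foxa1, the rank of which was 5. More H3K4me3 in KO than in WT was found in 86 of the 171. These values rest on replicate 2 of either genotype.

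**Figure D4:**
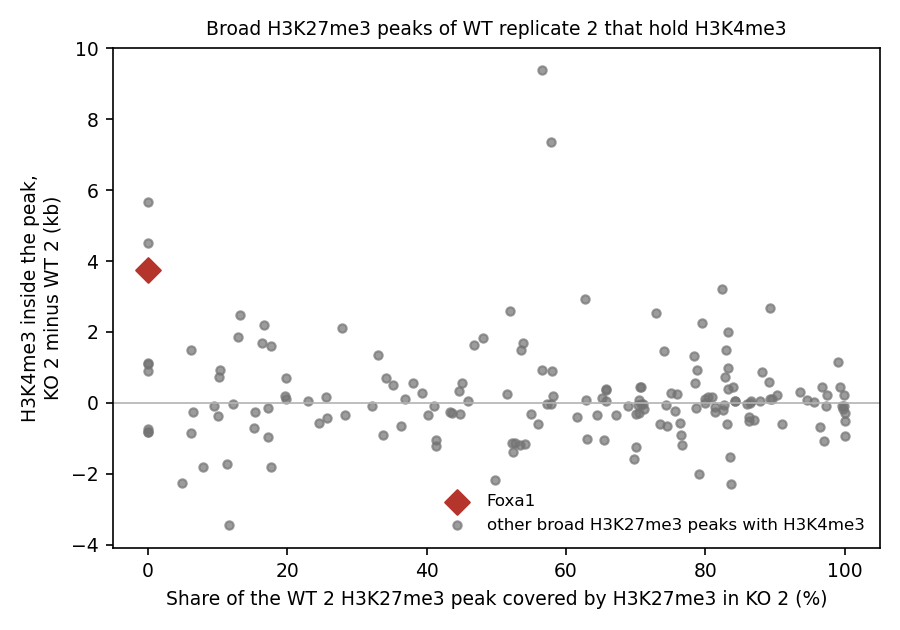
The 171 H3K27me3 peaks of WT replicate 2 that span 10 kb or more and hold H3K4me3, by the share covered by H3K27me3 in KO replicate 2 (%) and by H3K4me3 length inside the peak in KO replicate 2 minus WT replicate 2 (kb). Foxa1 (diamond) sits at 0% and 3737 bp, while the median peak sits at 65.2% and 4 bp.

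The windows whose covered lengths were closest to those of the Foxa1 window lacked its H3K36me3. Likeness was the mean absolute difference in covered length over the 12 libraries, and the 5 nearest windows differed by 1429.9 to 1752.1 bp, with Pearson's r of 0.939 to 0.972 over the 12 libraries. They were chr13:78320001-78370000, chr18:53620001-53670000, chr18:64470001-64520000, chr10:42870001-42920000 and chr9:118370001-118420000. Like Foxa1 they had H3K4me3 in KO and H3K27me3 in both WT libraries. Unlike Foxa1, all but chr18:53620001-53670000 also had H3K4me3 in WT replicate 1, at 1639 to 3007 bp. As at Foxa1, H3K27me3 in all 5 was longer in both WT libraries than in either KO library. In the chr10 and chr18:53620001 windows H3K4me3 was likewise longer in both KO libraries than in either WT library. It covered 4515 and 5070 bp in KO against 1639 and 3936 bp in WT in the chr10 window. In the chr18:53620001 window it covered 5914 and 5594 bp against 0 and 3832 bp. In the chr13, chr18:64470001 and chr9 windows H3K4me3 was shorter in KO replicate 1 than in WT replicate 2. None had H3K36me3 in KO. H3K27me3 of KO replicate 2 covered 2206 to 3487 bp in 4 of them and 0 bp in the chr10 window. The order of likeness is led by the longest mark, H3K27me3, and says nothing of shared function.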

How the data were processed

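The submitters' processing notes name Bowtie 0.12.7, the build mm9 and MACS, with no MACS version or settings. For each of 12 ChIP libraries the authors deposited 2 lists of peaks, 1 against whole-cell extract and 1 of differences, 24 in all and none pooled. The deposited score of a peak is at least 80. Its formula is not stated, so it only served to rank or filter peaks inside 1 list. Depth is unknown, and a deeper library can list more and wider peaks. The 371 peaks off chromosomes 1 to 19 and X were left out.

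Covered length is the length of the union of a library's peaks inside a window. Overlap meant at least 1 bp, and touching or overlapping peaks were merged into regions. The code was tested on simulated intervals (Python 3.11.15, pandas 2.3.3). The locus, the lists and the comparisons were chosen with earlier results of these data known. Named were all peaks in the window, the regions and windows with the same change in all marks, and the 5 windows nearest in covered length. Planned lists of genes and of cell type markers needed an mm9 annotation and were not analysed here. Alternatives were a score of at least 160, difference lists, whole peaks, windows of 25 and 100 kb, shifted windows and leaving out each library.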

Additional observations from a re-analysis of the deposited data

How the results depend on the processing

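The directions of all 3 marks at Foxa1 and the gap of 0 bp held under every alternative tried. Without 1 library this was fixed in advance, since the genotypes did not overlap in any mark and every pair of peaks compared had a gap of 0 bp. Whole peaks and the window of 25 kb repeated the main values, since no peak crossed the edge of either window. A score of at least 160 removed no H3K4me3 or H3K36me3 peak there. The difference lists, as read here, hold only peaks higher in their own genotype, so their direction was also fixed in advance. None of 48 recomputed values reversed, but the gaps and the numbers of windows among them could not reverse. Without 1 library, KO minus WT ranged from 2008 to 2591 bp for H3K36me3 and from -21919 to -4145 bp for H3K27me3. The same range was 3293.5 to 7757.5 bp for H3K4me3. The number of 50 kb windows with the change in all marks was 4. It was 2 with windows shifted by 25 kb, and 4 to 10 without 1 library. It was 3 with scores of at least 160 and 6 by difference peaks in both replicates. Foxa1 was among them in all 16 settings. For the settings without 1 library this was fixed in advance, since leaving a library out only relaxes the condition. Samples of both genotypes carry the numbers 1 and 2, which the labels do not tie to a shared culture or batch. Within numbers 1 and 2, KO minus WT was 7314 and 3737 bp for H3K4me3, 2591 and 2008 bp for H3K36me3, and -4145 and -21919 bp for H3K27me3. No paired test was run, as none was run on a locus chosen for its difference. The peak lists hold no read counts, so marks below the calling threshold could not be seen.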

Other observations

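The 11 difference peaks at Foxa1 often carried the very score of their twin in the extract list. Coordinates and score were equal for 7 of 11. Among difference peaks with the coordinates of an extract peak, the share with an equal score over whole lists ranged from 2.87% in H3K36me3 KO replicate 1 to 34.4% in H3K27me3 KO replicate 1. At Foxa1 the equal scores were those of both KO H3K36me3 peaks, of 3 short H3K27me3 peaks of WT replicate 1, of the domain of WT replicate 2 and of the KO replicate 1 H3K4me3 peak at the gene start. The scores of these last pairs were 3100. In the extract lists, 5.98% of WT replicate 2 H3K27me3 peaks and 40.9% of KO replicate 1 H3K4me3 peaks reached or exceeded it.

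The opposite change, with H3K4me3 and H3K36me3 longer in every WT library and H3K27me3 longer in every KO library, was found in 1 of the 2311 windows with every mark, against 4 for the change seen at Foxa1. It requires H3K27me3 of KO replicate 1, with 703 peaks listed, to exceed that of WT replicate 2, with 14932. The change seen at Foxa1 requires WT replicate 1, with 2558, to exceed KO replicate 2, with 17491. With lists so unequal, these counts cannot show a lean toward either direction.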
